A study of Mus musculus with 5 samples.

Results

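Genes of the extracellular matrix and of cell adhesion were followed through the lists of H3K36me3 and H3K9me3 islands from mouse embryonic stem cells (ESCs) with and without L-proline. The set held 9 genes that are commonly read out when epithelial cells turn motile and invasive: Fn1, Col4a1, Col4a2, Lama1, Lamc1, Sparc, Cdh1, Cdh2 and Vim. Each gene was given a fixed span on mouse build mm9, and every island with at least 1 bp inside a span was taken. This gave 23 islands of the 73415 in the 4 deposited lists: 11 of 12280 for H3K36me3 in untreated cells, 9 of 16804 for H3K36me3 with L-proline, 2 of 18464 for H3K9me3 in untreated cells and 1 of 25867 for H3K9me3 with L-proline.

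Cells were of the TBV2 line, which is wild type and of the 129/SvP strain, and were grown in complete medium with leukemia inhibitory factor and no added non-essential amino acids. All were plated sparsely on gelatin without feeder cells and kept for 5 days, the control ESCs without L-proline and the L-proline-induced cells (PiCs) with 500 µM L-proline. Chromatin immunoprecipitation with sequencing (ChIP-seq) was done for both marks in both conditions, and an input library came from untreated cells. Each mark and condition had 1 library. No difference below therefore has a replicate check, no test between conditions was made, and the spread between cultures is unknown. RNA was not measured, so the identity of the cells and the expression of the 9 genes were not checked.

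H3K36me3 is histone H3 trimethylated at lysine 36. It is laid down along the bodies of genes as RNA polymerase II elongates through them, and it usually fills the part of a gene away from its start. H3K9me3, with the methyl groups on lysine 9, marks heterochromatin and many silenced repeats. The proteins of the set fall into secreted matrix, which cells adhere to and migrate on, cadherins, which join neighbouring cells, and a filament of the cytoskeleton. A change from Cdh1 (E-cadherin) towards Cdh2 (N-cadherin), together with Fn1 and Vim, is the textbook signature of an epithelial-mesenchymal transition.

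The H3K36me3 lists split the 9 genes into 3 kinds. Fn1, Lamc1, Sparc, Cdh1 and Vim carried the mark over most of their span in both conditions, with the 2 coverages no more than 4.5 percentage points apart. With only the 50% of islands richest in tags, the Vim island of PiCs was not in the list, and the difference, PiC minus ESC, was -65.5 points for Vim and 12.3 points for Lamc1. Col4a1, Col4a2 and Cdh2 had no H3K36me3 island in either condition. Lama1 alone was of the last kind, with 87.0% of its span covered in ESCs and 12.5% of its span in PiCs. In sum the spans, 901 kb long, were covered over 39.8% in ESCs and 30.3% in PiCs. Lama1 held this difference, since the other 8 spans were covered over 32.1% in ESCs and 33.2% in PiCs. Over all chromosomes, inside and outside genes, 9.01% of 200 bp windows lay under an H3K36me3 island in ESCs and 8.89% in PiCs. Of the ESC coverage in the 9 spans 72.8% was also covered in PiCs, against 83.8% over the genome. The lower share lay in Lama1, which kept 14.4%, whereas Fn1, Lamc1, Sparc, Cdh1 and Vim each kept between 96.6% and 100%. Of the PiC coverage 95.7% was also covered in ESCs, against 84.9% over the genome.

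**Figure D1:**
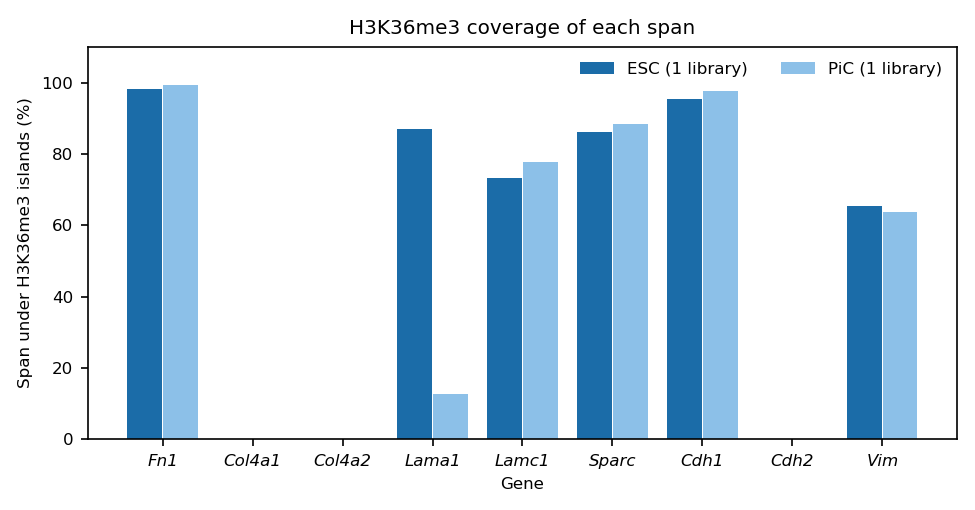
Percent of each gene's span under H3K36me3 islands (vertical axis) for the 9 genes (horizontal axis), with 1 bar per condition and 1 library behind each bar, so there are no error bars. Lama1 goes from 87.0% in ESCs to 12.5% in PiCs, the other marked genes have bars of nearly equal height, and Col4a1, Col4a2 and Cdh2 are at 0 in both.

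H3K9me3 was scarce over these genes. Its islands covered 0.400% of the summed spans in ESCs and 0.222% in PiCs, below the 2.15% and 3.74% of all windows. Those windows include stretches outside genes, and no share over genes alone was computed for either mark. Of the 9 spans, 7 had no H3K9me3 island in ESCs and 8 had none in PiCs. The islands that were found lay in Lama1 and at the end of Sparc.

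**Figure D2:**
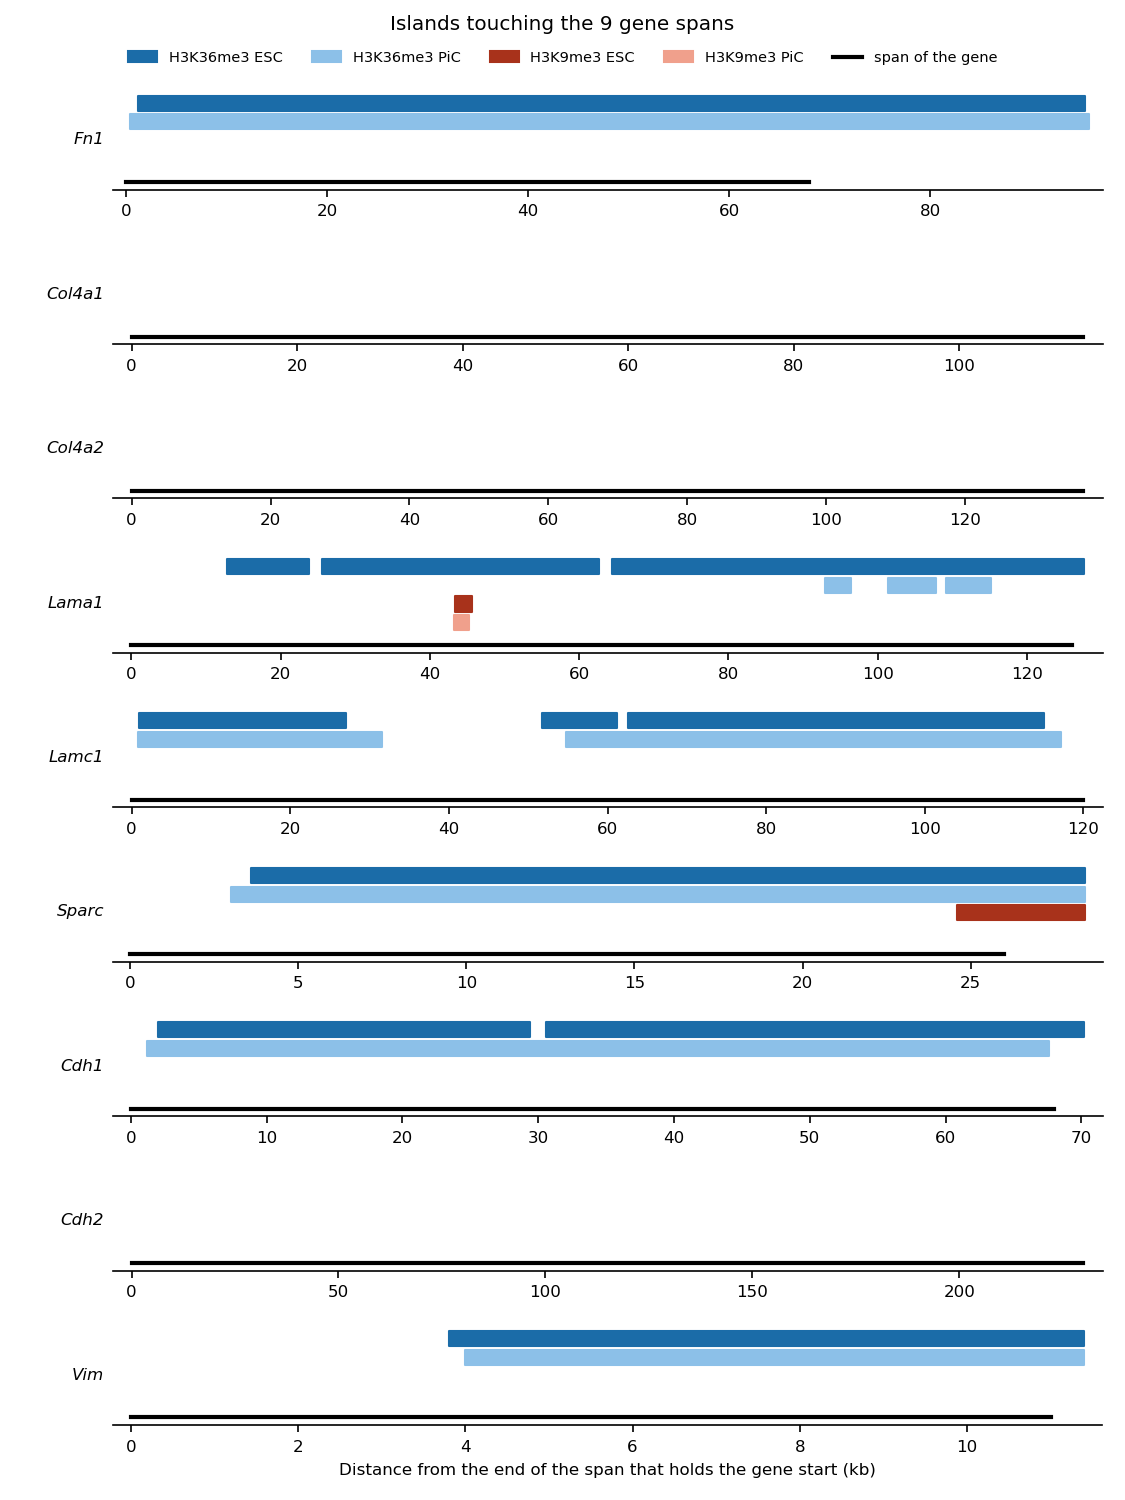
Islands of each list (coloured bars, 1 row per mark and condition) along the span of each gene (black line), with the horizontal axis giving the distance in kb from the end of the span that holds the gene start. The 3 ESC islands of Lama1 face 3 short PiC islands near the far end of the gene, while in Fn1, Lamc1, Sparc, Cdh1 and Vim the bars of both conditions have similar ends. The scale differs between genes.

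Fn1 encodes fibronectin, a large secreted glycoprotein that links integrins on the cell surface to the matrix. Its span (chromosome 1, 71632001 to 71700000) was covered by 1 unbroken H3K36me3 island in each condition. The ESC island ran from 71604601 to 71698800, was 94.2 kb wide and held 51094 tags, or 542.4 tags per kb. The PiC island ran from 71604201 to 71699600, was 95.4 kb wide and held 19394 tags, or 203.3 per kb. The edges in the 2 lists differed by 0.4 kb at the low end and by 0.8 kb at the high end. The number deposited with an island was taken to be its tags, and tags per kb are not scaled between lists, so a lower figure in PiCs is not by itself a loss.

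Within its own list the Fn1 island was extreme in both conditions. In ESCs it ranked 1 of 12280 by tags and 1 by tags per kb, and 94 by width. In PiCs it ranked 1 of 16804 by tags, 39 by tags per kb and 39 by width. The median island had 71.3 tags per kb in the ESC list and 48.9 in the PiC list. On the side where Fn1 ends, the island went on past the span by 27.4 kb in ESCs and 27.8 kb in PiCs. The next protein-coding gene on that side in the RefSeq gene table is Atic, an enzyme of purine synthesis. That table is of build GRCm38.p6, so where Atic lies under the island was not determined, and the tags of the 70.9% of the island inside the Fn1 span cannot be told apart from those outside it. Neither mark had another island close by, except for H3K9me3 on the side of the gene start, where the nearest island was 9.6 kb away in ESCs (0.4 kb wide) and 6.2 kb away in PiCs (6.6 kb wide). The nearest other H3K36me3 island was at least 483.6 kb away in both lists.

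Col4a1 and Col4a2 encode the chains of the main type IV collagen of basement membranes, and the genes lie head to head around a common promoter. Neither mark had an island in either span in either condition. The spans ran from 11198001 to 11313000 and from 11313001 to 11450000 on chromosome 8, 115 kb and 137 kb. These positions match those of GRCm38.p6 to within 1 kb, and no mm9 annotation was used here to check that they hold on mm9. The nearest H3K36me3 island lay 49.4 kb past the far end of Col4a2 in ESCs (11499401 to 11531200, 134.5 tags per kb) and 48.0 kb past it in PiCs (11498001 to 11531200, 91.7 tags per kb). On the Col4a1 side the nearest was 210.0 kb away in ESCs (4.2 kb wide) and 191.0 kb in PiCs (5.2 kb wide). Both lists thus held H3K36me3 islands on either side of the pair of genes, with short ones on the Col4a1 side. The nearest H3K9me3 island was a 1.2 kb one in ESCs, 9.2 kb past the far end of Col4a1, with 30 tags, and in PiCs the nearest lay 157.8 kb away, past Col4a2.

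Lama1 encodes the alpha chain of laminin-111, the laminin of the earliest embryonic basement membranes. Its span ran from 68046001 to 68172000 on chromosome 17. In ESCs 3 H3K36me3 islands lay along it, separated by gaps of 1.8 kb each. From the gene start onward they were an 11.0 kb island (68058801 to 68069800) with 520 tags, a 37.0 kb island (68071601 to 68108600) with 2540 tags and a 63.2 kb island (68110401 to 68173600) with 4774 tags. Their density went from 47.3 to 68.6 to 75.5 tags per kb, on either side of the list median of 71.3 over islands of all widths. Of the 2203 ESC islands of at least 30 kb, 574 had at most 80 tags per kb. The 37.0 kb and 63.2 kb islands were among these thinner ones. Together the 3 islands formed a broad domain. The domain began 12.8 kb into the span and ended 1.6 kb past it.

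In PiCs the same span held 3 short H3K36me3 islands, all near the far end of the gene and all inside the widest ESC island. They were 3.4 kb (68139001 to 68142400, 138 tags), 6.4 kb (68147401 to 68153800, 166 tags) and 6.0 kb (68155201 to 68161200, 157 tags) wide. The first had 40.6 tags per kb and ranked 11570 of 16804 in density. The other two had 25.9 and 26.2 tags per kb, at ranks 16629 and 16602, where 5% of the PiC islands lay under 29.6 and the lowest was 19.9. In covered length, 15.8 kb of the span was under islands in both conditions, 93.8 kb in ESCs alone and none in PiCs alone. Cut into 5 equal parts from the gene start, the span was covered over 43.7%, 98.4%, 92.9%, 100% and 100% in ESCs. The same parts were covered over 0%, 0%, 0%, 13.5% and 49.2% in PiCs. What remained in PiCs was thus confined to the part of the span farthest from the gene start.

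Few broad ESC domains had so little H3K36me3 in PiCs. Of the 3 ESC islands of Lama1, those of 11.0 kb and 37.0 kb met no PiC island, where 10.3% of all ESC islands did. Among ESC islands of at least 30 kb this share was 0.681% (15 of 2203), and the 37.0 kb island was one of them. Of the 63.2 kb island, 25% lay under PiC islands, and 31 of the 2203 broad islands, 1.41%, were covered to 25% or less. Broad islands thin in tags went without a PiC island more often. Among the 574 broad ESC islands of at most 80 tags per kb, the range in which both of these Lama1 islands lie, 2.44% met no PiC island and 4.36% were covered to 25% or less. The limits of 30 kb, 25% and 80 tags per kb were chosen with the Lama1 values known. A stretch under the caller's threshold is left out of a list, so no island does not mean no tags. Whether the smaller sum of tags in the PiC list bears on Lama1 was not tested.

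Tags were summed over called islands to set the members beside all other regions. Islands of the 2 conditions that overlapped were joined into regions, which gave 10190 H3K36me3 regions with islands in both lists. The median ratio of PiC to ESC tags over them was 0.620, with 5% of regions under 0.320 and 5% above 1.34. Regions at least 1.5-fold under the median made up 12.9% and those at least 1.5-fold above it 17.5%. Of the 7 regions that touched a member, 3 were under the median by that margin and none above it. The Lama1 region (68110401 to 68173600) held 4774 ESC tags in 63.2 kb of islands and 461 PiC tags in 15.8 kb of islands, or 75.5 and 29.2 tags per kb of island. Tags outside called islands are not in the lists, so its ratio of 0.0966 is not a measured fold change in tags. The ratio holds both the smaller PiC coverage and the lower tags per kb of the PiC islands, which are not scaled between lists. As low a ratio or lower was found in 15 of the 10190 regions, and in 13 of the 2520 regions of at least 30 kb. Over the whole span, with the ESC islands that met nothing in PiCs, the islands held 7834 tags in 111.2 kb in ESCs and 461 tags in 15.8 kb in PiCs.

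**Figure D3:**
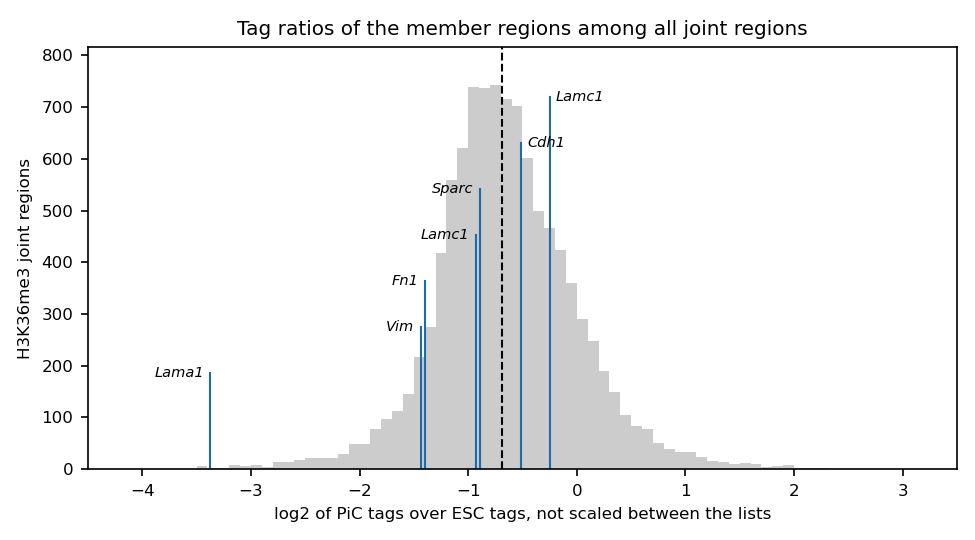
Histogram of the 10190 H3K36me3 regions with islands in both lists by the log2 ratio of PiC to ESC tags (horizontal axis, not scaled between the lists; vertical axis, number of regions). Blue lines mark the 7 regions of the member genes, with heights that only separate the labels, and the dashed line marks the median ratio of 0.620. Lama1 lies far to the left at a ratio of 0.0966, where PiC islands cover 15.8 kb and the ESC island 63.2 kb, and the others lie within the bulk, with Vim and Fn1 on its lower side.

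Lama1 was also the one member with an H3K9me3 island in both conditions. The site was narrow, 2.2 kb in ESCs (68089401 to 68091600, 116 tags) and 2.0 kb in PiCs (68089201 to 68091200, 306 tags), and it lay 43.4 kb and 43.2 kb from the span edge at the gene start. It was dense in tags, with 52.7 per kb in ESCs (rank 1015 of 18464) and 153.0 per kb in PiCs (rank 79 of 25867), above the medians of 25.5 and 33.0. In ESCs the whole site lay inside the 37.0 kb H3K36me3 island, a position shared by 4.85% of ESC H3K9me3 islands. In PiCs no H3K36me3 island touched it, and 6.07% of PiC H3K9me3 islands touched one. The PiC to ESC tag ratio of the site was 2.64, against a median of 1.85 over 13821 H3K9me3 regions with islands in both lists, so it was within 1.5-fold of the median, and 15.7% of these regions were 1.5-fold or more above it. The ratio was lower in denser regions. In the decile of H3K9me3 regions densest in ESCs, which holds this site, the median was 1.22 and 5% of regions were above 1.93. Within that decile the ratio of the site was at or above 99.8% of regions, and over all 13821 regions it was at or above 81.3%. ESC tags set the decile and are also the denominator of the ratio. A lower ratio in denser deciles is therefore partly built in, and no conclusion is drawn from the rank within the decile. The input library was not analysed here, so a site that gathers tags without the antibody cannot be told apart from an H3K9me3 site.

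Past the far end of Lama1 lay another H3K9me3 island, outside the span by 1.4 kb in ESCs (68173401 to 68178200, 32.1 tags per kb) and by 0.2 kb in PiCs (68172201 to 68178200, 37.2 tags per kb). The ESC H3K36me3 domain ended at 68173600, inside this H3K9me3 island by 0.2 kb. A further H3K36me3 island was found in PiCs 27.8 kb past the span (68199801 to 68202400, 119 tags), whereas in ESCs the next one on that side was 1563.4 kb away.

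Lamc1 encodes the gamma chain that laminin-111 and most other laminins contain. Unlike Lama1, its span (chromosome 1, 155060001 to 155180000) was covered over 73.2% in ESCs and 77.7% in PiCs. H3K36me3 lay at both ends of the gene and left the stretch between them free in both conditions. At the gene start was an ESC island of 26.0 kb (155153001 to 155179000, 1856 tags, 71.4 per kb) and a PiC island of 30.8 kb (155148401 to 155179200, 1560 tags, 50.6 per kb). A gap of 24.8 kb in ESCs and 23.2 kb in PiCs followed. Towards the gene end came 2 ESC islands, of 9.4 kb (155118801 to 155128200, 473 tags) and 52.4 kb (155065001 to 155117400, 9342 tags), and 1 PiC island of 62.4 kb (155062801 to 155125200, 5143 tags). The wide ESC island had 178.3 tags per kb, rank 1431 of 12280, and the PiC island 82.4, rank 2804 of 16804. PiC islands that met 2 or more ESC islands, as this one did, made up 4.56% of the PiC list and 15.4% of its islands of at least 30 kb.

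In Lamc1 the region at the gene end had a ratio of 0.524 and the one at the gene start 0.840, both within 1.5-fold of the median of 0.620. Those values were at or above 32.1% and 76.1% of all joint regions. The H3K9me3 island nearest to Lamc1 was 61.0 kb away in ESCs and 60.6 kb in PiCs.

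Sparc encodes osteonectin, a small matrix protein that binds collagen and changes how cells attach to matrix. The span (chromosome 11, 55208001 to 55234000) was covered by 1 H3K36me3 island in each condition, over 86.2% in ESCs and 88.5% in PiCs. The islands began at the same base, 55205601, which is 2.4 kb past the gene end, and reached 55230400 in ESCs (24.8 kb, 2706 tags) and 55231000 in PiCs (25.4 kb, 1461 tags). The density was 109.1 tags per kb in ESCs, rank 3532, and 57.5 in PiCs, rank 6170. The tag ratio of 0.540 was at or above 35.4% of all joint regions. The first 3.6 kb of the span from the gene start was free of the mark in ESCs and the first 3.0 kb in PiCs.

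Sparc also carried an H3K9me3 island in ESCs with no counterpart in PiCs, as was the case for 20.7% of ESC H3K9me3 islands. It was 3.8 kb wide (55205601 to 55209400), began at the same base as the H3K36me3 island and lay wholly inside it, with 1.4 kb inside the Sparc span. It held 45 tags, or 11.8 per kb, rank 18227 of 18464, against the median of 25.5. In the H3K36me3 island the density over the whole 24.8 kb was 109.1 tags per kb.

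Cdh1 encodes E-cadherin, which holds epithelial cells and undifferentiated ESCs together. Its span (chromosome 8, 109127001 to 109195000) was under H3K36me3 over 95.3% in ESCs and 97.6% in PiCs. In ESCs the mark came as 2 islands with a gap of 1.2 kb, the smallest gap found in that list. The one at the gene start was 27.4 kb wide (109129001 to 109156400, 1555 tags, 56.8 per kb) and the other 39.6 kb (109157601 to 109197200, 7385 tags, 186.5 per kb). They ranked 8012 and 1281 of 12280 in density, so the mark was thicker towards the gene end. In PiCs a single island of 66.4 kb (109128201 to 109194600) held 6269 tags, or 94.4 per kb, and ranked 198 of 16804 by tags, 213 by width and 1918 by density. It met both ESC islands and so was the other PiC island of the set that joined ESC islands.

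The tag ratio of the Cdh1 region was 0.701, with 8940 tags in ESCs and 6269 in PiCs. It was 1.13 times the median of all regions and at or above 62.3% of them. The span edge at the gene start was 2.0 kb from the mark in ESCs and 1.2 kb in PiCs. With spans widened by 5 kb, the higher coverage in PiCs turned into a lower one, with a difference of -0.769 percentage points, so no direction is read from it. The nearest H3K9me3 island was 47.0 kb away in ESCs and 96.2 kb in PiCs.

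Cdh2 encodes N-cadherin, the cadherin of neural and mesenchymal cells. Its span of 230 kb (chromosome 18, 16740001 to 16970000) was the longest of the set and held no island of either mark in either condition. It lay in a wide stretch free of H3K36me3. In ESCs the nearest H3K36me3 islands were 1677.2 kb away on the side of the gene end and 3758.8 kb on the side of the gene start. In PiCs they were 1695.8 kb and 1894.8 kb away. H3K9me3 islands were nearer, at 148.8 kb and 174.0 kb in ESCs. In PiCs they lay 58.2 kb away on the side of the gene end, in an island of 1.6 kb with 43 tags, and 167.6 kb away on the other.

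Vim encodes vimentin, the intermediate filament of mesenchymal cells. The span was the shortest, 11 kb (chromosome 2, 13494001 to 13505000), and 1 H3K36me3 island lay on it in each condition, over 65.5% in ESCs and 63.6% in PiCs. The ESC island ran from 13497801 to 13505400 (7.6 kb, 1003 tags) and the PiC island from 13498001 to 13505400 (7.4 kb, 371 tags). In density they had 132.0 tags per kb, rank 2615 of 12280, and 50.1 tags per kb, rank 8042 of 16804. Both began about 4 kb into the span and had the same far end. No other H3K36me3 island lay within 302.4 kb of Vim in ESCs or 315.4 kb in PiCs, and no H3K9me3 island within 325.6 kb in either list.

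Vim and Fn1 were the other members whose tag ratio was at least 1.5-fold under the median. Vim had a ratio of 0.370, which was 1.68-fold under it, and Fn1 a ratio of 0.380, 1.63-fold under it. They were at or above 8.20% and 9.15% of all joint regions. The ratio was lower in regions denser in ESCs, with a median of 1.12 in the thinnest decile of regions and 0.492 in the densest, to which Fn1 belongs. Against that decile Fn1 was 1.29-fold lower, and 12.1% of the decile had a ratio as low. Vim lay in the third densest decile, with a median of 0.593, and was 1.60-fold lower, with 4.51% as low. The deciles were cut on ESC tags per kb, and ESC tags are also the denominator of the ratio. The fall of the ratio with density is therefore partly built in, which limits what these comparisons within deciles show. Against the median of regions of at least 30 kb, 0.569, Fn1 was no longer past 1.5-fold.

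**Figure D4:**
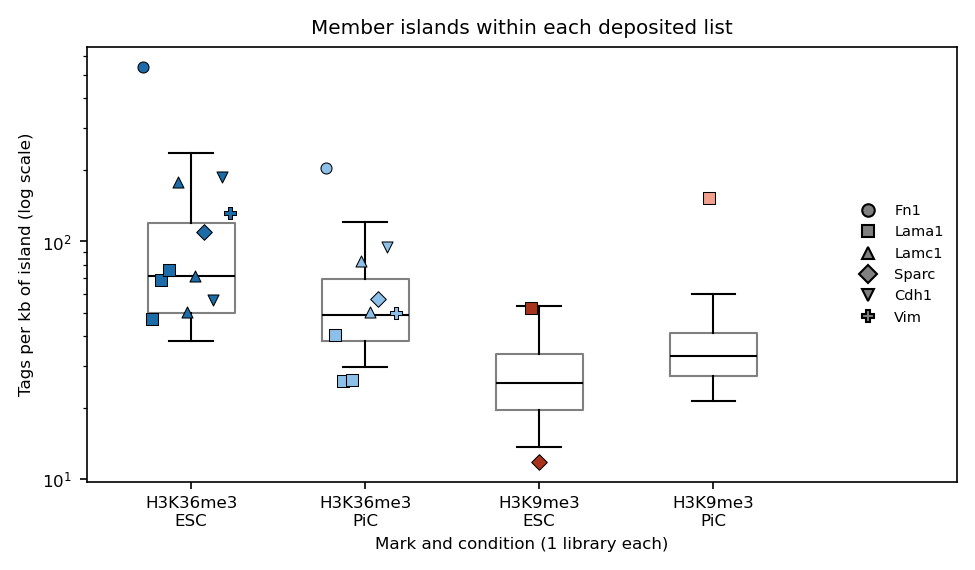
Tags per kb of island (vertical axis, log scale, not scaled between lists) for each mark and condition (horizontal axis). Boxes give the quartiles and median of all islands of a list, whiskers the 5% and 95% points, and symbols the islands of the member genes. Fn1 lies above the whiskers in both H3K36me3 lists, 2 of the 3 PiC islands of Lama1 lie below them, and the Lama1 H3K9me3 site of PiCs lies above the whiskers of its list.

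The number of ESC islands of the set that were split in PiCs was too small to set apart from the list. Of all ESC H3K36me3 islands 17.7% met 2 or more PiC islands, and 45.4% of those of at least 30 kb. Among the 11 ESC islands of the set 1 did, the 63.2 kb island of Lama1, which met 3. Of the 11, 5 were at least 30 kb wide, and 1 of these 5 was split. Those of Fn1, Lamc1 and Cdh1 met 1 PiC island each, and those of Lama1 met 0 and 3. When gaps of up to 2 kb were closed, the set had 7 ESC and 8 PiC islands, so the larger ESC number came from gaps under 2 kb. All 9 PiC islands of the set overlapped an ESC island, where 20.3% of the PiC list had no ESC counterpart.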

How the data were processed

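Per the labels, H3K9me3 and H3K36me3 chromatin from sonicated nuclei was sequenced on a SOLiD 4 instrument after PCR amplification. Per the submitters' processing notes, islands were called with SICER on mm9. Its version and thresholds, the aligner, duplicate handling and use of the input are not stated in the labels or files, and the input was not analysed here. Each deposited file gives a chromosome, start, end and whole number per island, read as the tag count. The deposited counts summed to 26055650 tags (ESCs) and 15787192 (PiCs) in the H3K36me3 islands, and to 1511058 and 3514489 in the H3K9me3 islands. Library depth is unknown.

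Members, spans and lists were chosen with earlier results of these data known. The spans were given as rounded gene positions on mm9, and no mm9 annotation was used to check them. They exceeded the RefSeq gene lengths of GRCm38.p6 by 0.078 to 9.63 kb (all 9 matched). Only lengths and neighbours were taken from that table, apart from the positions set beside the Col4a1 and Col4a2 spans. Gene orientation is textbook knowledge. The genes named were the 9 members and a neighbour where an island ran past a span. Islands with 1 bp or more inside a span were taken, and positions are 1-based. Coverage was counted in 200 bp windows, ranks by the lowest rank of ties. Overlapping islands of both conditions were joined into regions, and a tag ratio 1.5-fold from the median was counted as apart. No p-value was computed, as each group had 1 library. Overlap functions were tested on random subsets and cut copies of the ESC H3K36me3 list and on a small made-up list. There 12 of 12 checks gave the planted value. Alternatives were other span edges, at least 50% of an island inside the span, shorter lists, joined islands and other medians. Density deciles, the limits on broad islands, H3K9me3 joint regions and the sums without some genes were chosen after seeing the data. Python 3.11.15, numpy 2.4.6, pandas 2.3.3, scipy 1.17.1 and matplotlib 3.10.9 were used.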

Additional observations from a re-analysis of the deposited data

How the results depend on the processing

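No paired analysis was possible because there was 1 library per group, and no replicate could be left out. Coverage counts as moved where it left the exact 95% binomial interval over windows, which treats neighbouring windows as independent. With spans widened by 5 kb, the summed H3K36me3 coverage was 37.4% in ESCs and 28.3% in PiCs, and that of H3K9me3 0.969% and 0.686%. With only the 50% of islands richest in tags, H3K36me3 covered 37.5% and 27.8%, the PiC islands numbered 5, and 0 member regions were 1.5-fold under the median ratio. The Lama1 and Vim islands of PiCs were not in that list, and Fn1 was at 0.669 of a median that was then 0.567. The difference in coverage, PiC minus ESC, was then -65.5 points for Vim and 12.3 for Lamc1. With lists of equal size the PiC coverage was 28.9%. Joining islands over 2 kb or over 5 kb left 7 ESC islands. Without Lama1, a setting added later, H3K36me3 covered 32.1% and 33.2%, and without Col4a1, Col4a2 and Cdh2, also added later, 85.6% and 65.2%. Spans widened by 5 kb turned the Cdh1 difference in coverage, PiC minus ESC, from 2.35 to -0.769 percentage points. In Lama1 the difference lay between -84.3 and -70.2 points under the 7 planned settings. How many tags a stretch needs to enter a list is not known, which limits what the absence of an island shows.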
